A study of Mus musculus with 4 samples.

Results

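The genes described here encode enzymes and enzyme subunits that write or remove marks on chromatin or move its nucleosomes. They are Tet2, Dnmt3a, Crebbp, Ep300, Hdac7, Dot1l, Jarid2, Smarca2, Arid1b and Chd7, and the histone demethylase gene Jmjd3 (Kdm6b) is not among them. Accessibility was measured by ATAC-seq, in which the Tn5 transposase cuts open DNA, so that more reads at a site stand for more accessible chromatin. The cells were RAW macrophages, a mouse macrophage line, and were either left untreated (control) or treated for 1 hr with 5 mM MCD (methyl-β-cyclodextrin), a cyclic sugar that draws cholesterol out of membranes, given in medium with BSA. There were 2 samples per condition, which are not stated to be separate cultures. The labels write the digits of the line's name in another order. In the study's general methods treatments and their controls are in BSA medium, whereas its account of ATAC-seq says only that control cells were untreated.

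The deposited table lists 3812 intervals of 201 bp on GRCm38 that differed between the conditions, each with the authors' mean of normalized reads in control and in MCD. Each interval was given to the gene whose transcription start site (TSS) lay nearest in the GENCODE M21 annotation, and 23 of the 3812 intervals belonged to the 10 genes. The intervals were chosen by the measured difference between the conditions, and the genes were chosen with these results known, so direction and size of the differences are given as a description and were not tested. An interval with a higher MCD mean is called gained and one with a higher control mean is called lost. Differences are MCD minus control on the log2 scale of the normalized reads. Only the means are listed, so no spread between samples and no depth can be given, and each value stands without an error. A change in a bulk sample can come from more or fewer cells with an open site or from more or less signal per cell, and these cannot be told apart. The cell type in the labels could not be checked by marker expression in an accessibility table.

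Cytosine methylation is laid down by DNA methyltransferases such as DNMT3A, and its removal starts with oxidation by TET enzymes such as TET2. Histone acetylation, written by CBP (encoded by Crebbp) and its close relative p300 (encoded by Ep300) and removed by deacetylases, is linked to active enhancers and promoters, where these acetyltransferases act as co-activators for many transcription factors. In macrophages, distal enhancers are opened by the myeloid factor PU.1 together with signal-dependent factors such as AP-1 and NF-κB.

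The sequences of the intervals on which the comparisons between genes rest are given first. They were read from the RefSeq copy of GRCm38.p6 on the plus strand, 5′ to 3′. Capitals mark matches, on either strand, to the AP-1 motif TGACTCA, the κB motif and the PU box GAGGAA. The 3 Tet2 intervals and the single Dnmt3a interval all carry an AP-1 match, and Tet2 interval 1 also carries the only κB match among the 23 intervals.
Tet2 interval 1, chr3:133437022-133437222: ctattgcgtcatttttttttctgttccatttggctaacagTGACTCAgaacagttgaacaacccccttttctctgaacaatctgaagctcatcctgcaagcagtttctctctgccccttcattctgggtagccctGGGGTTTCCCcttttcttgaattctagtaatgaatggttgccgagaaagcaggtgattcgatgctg
Tet2 interval 2, chr3:133625138-133625338: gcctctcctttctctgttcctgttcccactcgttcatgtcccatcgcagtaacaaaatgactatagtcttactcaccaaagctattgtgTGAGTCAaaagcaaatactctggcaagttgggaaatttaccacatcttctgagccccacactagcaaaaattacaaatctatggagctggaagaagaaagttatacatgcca
Tet2 interval 3, chr3:133758501-133758701: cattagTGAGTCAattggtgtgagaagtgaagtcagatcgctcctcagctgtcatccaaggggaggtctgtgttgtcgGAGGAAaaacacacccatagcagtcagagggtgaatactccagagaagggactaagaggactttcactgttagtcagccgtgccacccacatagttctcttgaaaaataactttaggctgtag
Dnmt3a, chr12:3854513-3854713: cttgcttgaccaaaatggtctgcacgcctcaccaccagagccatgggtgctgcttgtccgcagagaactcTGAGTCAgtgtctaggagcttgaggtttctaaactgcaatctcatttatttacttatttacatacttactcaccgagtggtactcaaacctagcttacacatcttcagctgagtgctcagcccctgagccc

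The gained Crebbp interval and the lost Ep300 pair are shown because they differ in direction between related acetyltransferase genes. Crebbp carries an AP-1 match and a PU box, Ep300 interval 1 carries none of the motifs in capitals, and Ep300 interval 2 carries 2 PU boxes.
Crebbp, chr16:4200086-4200286: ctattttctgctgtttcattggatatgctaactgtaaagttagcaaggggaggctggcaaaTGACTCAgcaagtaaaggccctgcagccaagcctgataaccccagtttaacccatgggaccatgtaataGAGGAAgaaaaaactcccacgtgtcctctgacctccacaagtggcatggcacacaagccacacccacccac
Ep300 interval 1, chr15:81534213-81534413: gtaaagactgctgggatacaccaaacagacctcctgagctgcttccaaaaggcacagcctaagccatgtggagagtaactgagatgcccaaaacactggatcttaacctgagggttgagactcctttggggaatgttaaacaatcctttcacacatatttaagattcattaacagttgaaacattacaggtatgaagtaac
Ep300 interval 2, chr15:81568689-81568889: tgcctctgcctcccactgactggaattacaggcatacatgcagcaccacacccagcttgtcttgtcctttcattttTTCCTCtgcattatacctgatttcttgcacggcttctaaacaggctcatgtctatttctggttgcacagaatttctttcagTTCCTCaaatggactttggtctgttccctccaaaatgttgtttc

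Jarid2 interval 1 is shown as the interval with the largest difference of the 23, and the Arid1b interval as one made of a tandem repeat. The sequence of Jarid2 interval 1 carries a PU box, and that of Arid1b carries no capitals.
Jarid2 interval 1, chr13:44704112-44704312: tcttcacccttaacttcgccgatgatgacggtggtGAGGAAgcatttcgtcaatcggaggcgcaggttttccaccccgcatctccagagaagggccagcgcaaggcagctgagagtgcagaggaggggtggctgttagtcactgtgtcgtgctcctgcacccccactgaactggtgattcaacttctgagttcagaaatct
Arid1b, chr17:5174535-5174735: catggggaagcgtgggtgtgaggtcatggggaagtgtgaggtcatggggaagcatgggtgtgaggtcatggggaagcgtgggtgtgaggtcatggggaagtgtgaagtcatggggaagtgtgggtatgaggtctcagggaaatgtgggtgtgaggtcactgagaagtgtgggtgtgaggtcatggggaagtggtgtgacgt

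Of the 23 intervals, 21 were gained and 2 were lost, against 73.2% gained over the whole table. The difference was at least 1 in absolute size in 18 of the 23, against 69.8% over the whole table. The share gained among the 23 was 91.3%, and both lost intervals were those of Ep300. The median difference was 1.33 over the 23 intervals and 1.14 over all 3812. Among gained intervals alone the medians were 1.38 for the chromatin enzyme genes and 1.39 for the table. The gained intervals at these genes were therefore of ordinary size for the table.

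**Figure D1:**
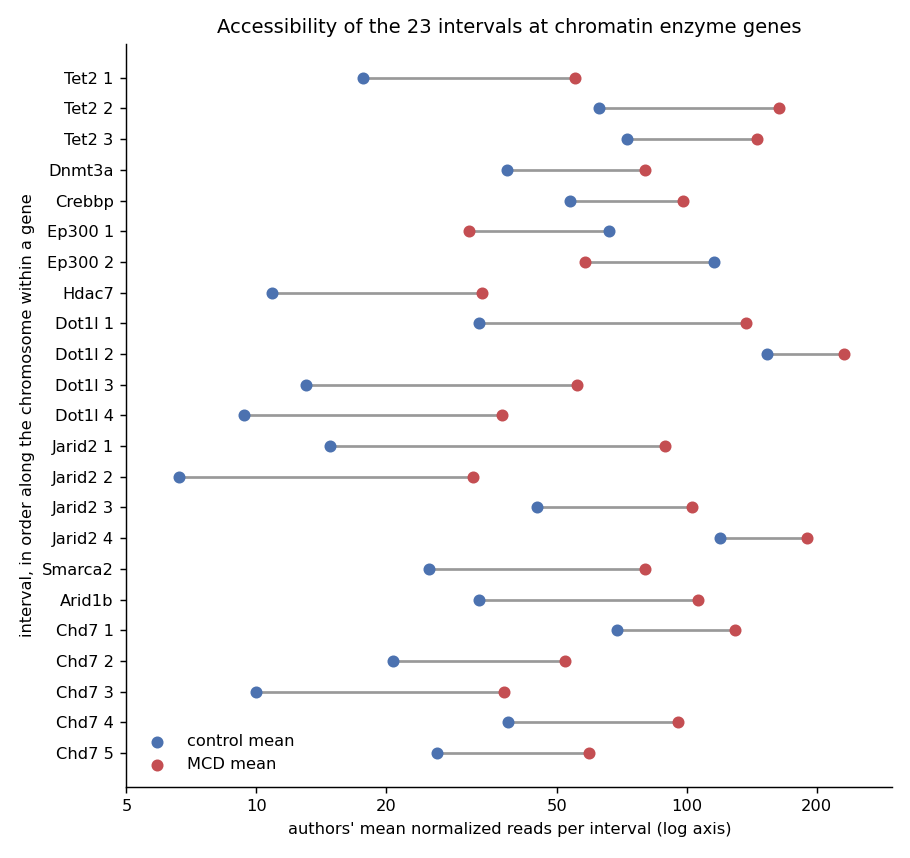
Mean normalized reads of each of the 23 intervals (horizontal log axis) in control (blue) and MCD (red), with 1 line per interval and no error bars because single samples are not listed. The red point lies to the right of the blue point in 21 intervals, and the order is turned in the 2 Ep300 intervals.

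Tet2 (ENSMUSG00000040943.12, chr3:133463679-133545139, minus strand) had 3 gained intervals and none inside the gene. Interval 1 lies beyond the 3′ end of the gene in no annotated gene, 34695 bp downstream of the nearest Tet2 TSS and 107268 bp downstream of the TSS of the reference transcript. Its mean was 17.7 reads in control and 54.8 reads in MCD, a difference of 1.63. Interval 2 lies 80099 bp upstream, within the annotated gene Gm37228, and went from 62.6 to 163 reads, a difference of 1.38. Interval 3 lies 213462 bp upstream in no gene and went from 72.5 to 145 reads, a difference of 1.00. The interval with the lowest control mean thus had the largest ratio, whereas interval 2 added the most reads, 101 against 37.1 for interval 1 and 72.8 for interval 3. No other changed interval lay within 50 kb of any of the 3. All are far from the gene, and with the start sites of all annotated genes they would go to Gm25042, Gm37228 and Gm6135, so their tie to Tet2 rests on the set of start sites used.

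Dnmt3a (ENSMUSG00000020661.15, chr12:3806007-3914443, plus strand) had 1 gained interval, inside the gene. It lies in intron 3 of the reference transcript, 47583 bp downstream of that transcript's TSS and 4978 bp downstream of the nearest internal TSS of the gene. Its mean was 38.3 reads in control and 80.0 in MCD, a difference of 1.06. Genes for adding and for removing cytosine methylation thus both had gained intervals, as did 74.8% of the 2582 genes with an interval. Set side by side, the mean difference was 1.34 over the 3 Tet2 intervals and 1.06 for Dnmt3a, which leaves 0.28 between them on the log2 scale. Tet2 interval 3 had a smaller difference than Dnmt3a, so the values of the 2 genes overlapped. The pair differed more in place than in size, with Tet2 intervals all distal and outside the gene and the Dnmt3a interval intronic.

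Crebbp (ENSMUSG00000022521.10, chr16:4081328-4213997, minus strand) and Ep300 (ENSMUSG00000055024.12, chr15:81585351-81652077, plus strand) were assigned intervals that differed in opposite directions. The Crebbp interval lies in intron 1, 13227 bp downstream of the nearest TSS and 13811 bp downstream of the reference TSS. Its mean was 53.5 reads in control and 97.9 in MCD, a difference of 0.87 or 1.83-fold, which placed it 2411th of the 2790 gained intervals by difference. It was one of the smaller gains of the table, and the only interval of this gene.

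Both Ep300 intervals lie upstream of the gene in no annotated gene. Ep300 interval 1, 51038 bp upstream of the nearest TSS, went from 66.0 reads in control to 31.2 in MCD, a difference of -1.08 and rank 371 of the 1022 lost intervals. Interval 2, 16562 bp upstream, went from 116 to 57.9 reads, a difference of -0.997 and rank 479. The control mean was therefore 2.12-fold the MCD mean at interval 1 and slightly less at interval 2. Each was the other's only changed neighbour within 50 kb, and across the 23 intervals these were the only ones with a lost interval that near. The mean difference was -1.04 over the Ep300 pair and 0.87 for Crebbp, 1.91 apart. Bases marked as repeats in the assembly made up 43.8% of the Crebbp interval, and 0.0% and 30.8% of Ep300 intervals 1 and 2. The median over the table was 10.4%, and what such repeats did to these values was not tested. In control, the Ep300 intervals were the more accessible, and in MCD the Crebbp mean was above both. With the start sites of all annotated genes the pair would go to Gm5218 and 1110025M09Rik, whereas the Crebbp and Dnmt3a intervals kept their gene.

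**Figure D2:**
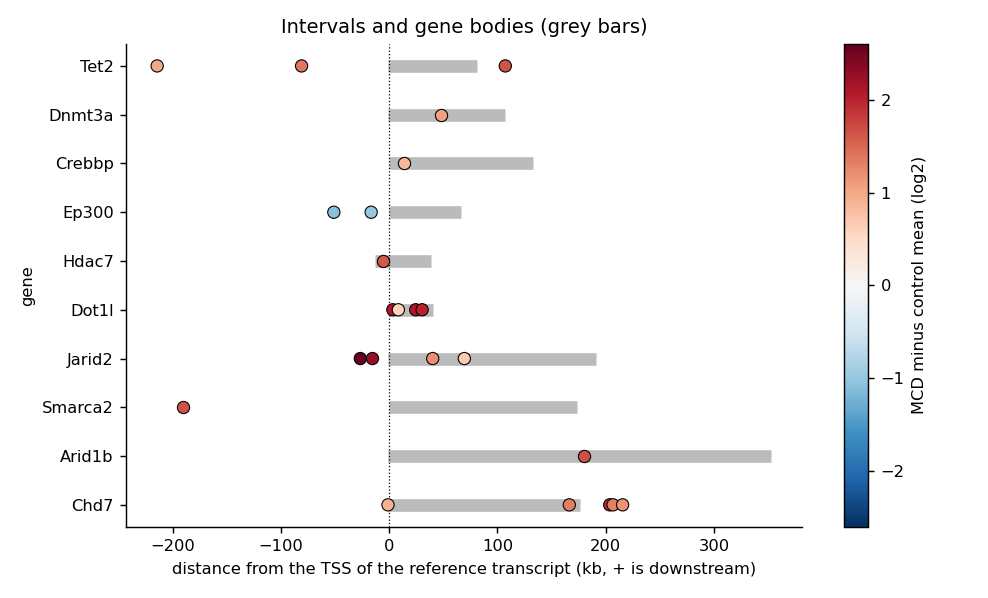
Distance of each interval's middle from the TSS of the gene's reference transcript in kb (positive is downstream in the gene's direction), with the gene body as a grey bar and the MCD minus control difference as colour. The Tet2 and Smarca2 intervals and the blue Ep300 pair lie outside the gene bars, and those of Dot1l, Dnmt3a, Crebbp and Arid1b lie inside them.

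Hdac7 (ENSMUSG00000022475.19, chr15:97792664-97844502, minus strand) encodes a class IIa histone deacetylase. Its interval at chr15:97837658-97837858 lies 5991 bp upstream of the reference TSS but inside the annotated gene, in introns of longer transcripts. Its mean was 10.9 reads in control and 33.4 in MCD, a difference of 1.62 or 3.08-fold. The interval was thus weakly accessible in control and stayed low in MCD beside most of the others. It carries a PU box and no AP-1 match. A gained interval assigned to another gene lies within 50 kb of it.

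Dot1l (ENSMUSG00000061589.14, chr10:80755206-80795461, plus strand) encodes the methyltransferase of lysine 79 of histone H3, and all 4 of its intervals lie within the gene. Interval 1 (chr10:80758539-80758739, intron 1) went from 32.9 to 137 reads, a difference of 2.06. Interval 2 (chr10:80763632-80763832, also intron 1) went from 153 to 231 reads, a difference of 0.59, which was the smallest of the 21 gains. The first intron thus held both an interval with a large ratio and the most accessible interval of all 23, in either condition. Interval 2 would go to Gm17151 with the start sites of all annotated genes. Interval 3 (chr10:80779649-80779849, intron 9) went from 13.1 to 55.7 reads, a difference of 2.09. Interval 4 (chr10:80785570-80785770) overlaps exon 19 by 54 bases and went from 9.36 to 37.2 reads, a difference of 1.99. It is the only one of the 23 on an exon of a reference transcript. Intervals 3 and 4 lie 2193 bp and 506 bp downstream of internal start sites of Dot1l. In added reads the order was different, with 104 for interval 1, 77.9 for interval 2, 42.7 for interval 3 and 27.8 for interval 4. Interval 3 holds a run of repeated GT in which one 12-base word occurs 7 times.

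Jarid2 (ENSMUSG00000038518.15, chr13:44729474-44921643, plus strand) encodes a JmjC-family cofactor of the Polycomb complex PRC2 that is itself thought to lack demethylase activity. Interval 1, 25262 bp upstream of the nearest TSS, went from 14.9 to 89.1 reads, a difference of 2.59 and rank 90 of the 2790 gained intervals. Interval 2 (chr13:44715325-44715525), 14049 bp upstream, went from 6.63 to 31.8 reads, a difference of 2.26. These upstream intervals were weakly open in control and had the largest ratios among the 23. The intervals in intron 2 were more open in control and differed less. Interval 3 (chr13:44770965-44771165) went from 44.8 to 103 reads, a difference of 1.20, and interval 4 (chr13:44800167-44800367) from 119 to 190.3 reads, a difference of 0.67. Interval 4 would go to Gm22213 with the start sites of all annotated genes.

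Further upstream of Jarid2 lie 2 gained intervals outside the assignment, because the TSS of the noncoding gene 1700029N11Rik is much nearer. Both would be counted for Jarid2 only with the start sites of protein-coding genes alone. At chr13:44321237-44321437, 408137 bp from the Jarid2 TSS and 118375 bp from that of 1700029N11Rik, the mean was 6.67 reads in control and 81.1 in MCD. Its difference of 3.60 is the largest gain of the whole table. At chr13:44538358-44538558, 191016 bp from Jarid2 and 98722 bp from 1700029N11Rik, the mean went from 81.7 to 144 reads, a difference of 0.82, and the sequence holds a κB match. Neither is counted among the 23.

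The remaining genes encode nucleosome remodellers. Smarca2 (ENSMUSG00000024921.17, chr19:26605050-26778322, plus strand) encodes BRM, an ATPase of the SWI/SNF complex. Its interval at chr19:26414820-26415020 lies 190130 bp upstream in no gene, carries an AP-1 match and went from 25.2 to 79.9 reads, a difference of 1.67. Arid1b (ENSMUSG00000069729.14, chr17:4994332-5347656, plus strand) encodes a DNA-binding subunit of the same complex. Its interval lies in intron 4, 134057 bp from the nearest TSS, and went from 33.0 to 106 reads, a difference of 1.68. The SWI/SNF genes therefore had nearly equal differences at very different places. In the Arid1b interval one 12-base word occurs 6 times, and such a word occurring at least 3 times was found in 178 of the 3812 intervals (4.67%) and in 2 of the 23, the other being Dot1l interval 3. Reads in tandem repeats are harder to place, and what this did to either value was not tested. With the start sites of all annotated genes the Smarca2 and Arid1b intervals would go to AC117809.1 and Gm15599.

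Chd7 (ENSMUSG00000041235.12, chr4:8690406-8867659, plus strand) encodes a chromodomain helicase that slides nucleosomes, and it had 5 gained intervals, the most of any of the genes. Interval 1 covers the first TSS of the gene, with its middle 95 bp upstream, and went from 68.8 to 129 reads, a difference of 0.91. Interval 2 (chr4:8857623-8857823), in intron 32 and 2492 bp from an internal TSS, went from 20.8 to 52.2 reads, a difference of 1.33. The other 3 form a group past the 3′ end of the gene, in no gene. Interval 3 (chr4:8894971-8895171) went from 9.97 to 37.6 reads, a difference of 1.92. Interval 4 (chr4:8898065-8898265) went from 38.4 to 95.6 reads, a difference of 1.32, and interval 5 (chr4:8906867-8907067) from 26.3 to 59.2 reads, a difference of 1.17. The promoter interval was the most open of the 5 in both conditions and differed least. Interval 5 would go to Rps18-ps2 with the start sites of all annotated genes.

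Across the genes, few of the intervals were at promoters. Within 3 kb of a TSS lay 4 of the 23 (17.4%), against 16.5% of the table, and of these only Chd7 interval 1 is at the 5′ end of a gene, the others being near internal start sites of Dot1l and Chd7. In all, 12 of the 23 overlap the gene they were assigned to, Chd7 interval 1 by its edge alone, with 9 of them in introns of the reference transcript, and 10 lie in no gene. The same places over the whole table are not given here, so these counts describe the 23 alone. The median distance to the TSS was 25262 bp, against 14901 bp over the table. Another changed interval lay within 50 kb of 15 of the 23. Except at Hdac7, these neighbours were assigned to the same gene, so the count largely restates which genes had several intervals. The share over the table is not given here, and the count is not read as particular to these genes.

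**Figure D3:**
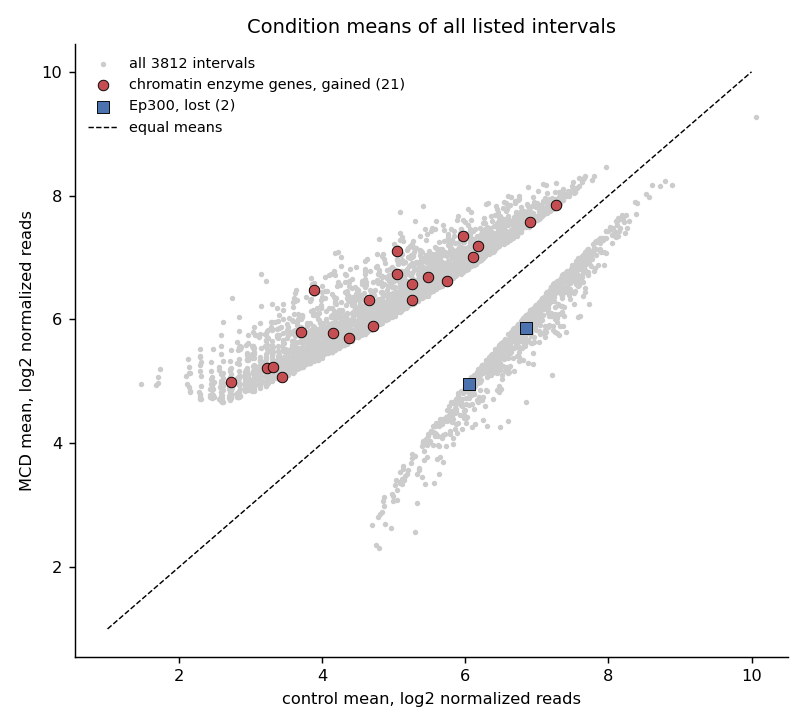
Mean normalized reads on the log2 scale in control (horizontal) and MCD (vertical) for all 3812 intervals (grey), the 21 gained intervals of the chromatin enzyme genes (red) and the 2 lost ones of Ep300 (blue squares), with a dashed line at equal means. The empty band along the line is there because the table lists changed intervals alone. The red points have control means from 6.63 to 153 reads, against 2.77 to 251 reads over all gained intervals.

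The difference followed the control level in the same way as in the table. Over the gained intervals with a control mean under 20 reads, the median difference was 1.99 at the chromatin enzyme genes (n = 7) and 1.90 in the table (n = 1002). From 20 to 60 reads it was 1.32 (n = 9) against 1.30 (n = 1126), and at 60 reads or more 0.91 (n = 5) against 0.84 (n = 662). Weakly open intervals thus had larger ratios both at these genes and elsewhere. The difference and the control level share the control mean, and a weak interval had to differ by more to enter the table, so this order is a description. Median control means were 33.0 reads for the 23 and 44.7 for all intervals.

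The reference sequence of every interval was searched on both strands for transcription factor motifs, of which 5 are given here. The AP-1 motif TGACTCA, bound by Jun and Fos proteins, matched in 10 of the 21 gained intervals (47.6%), against 45.9% of all gained intervals, 1.96% of all lost ones and 34.1% of the table. The 10 lie at 7 genes, namely all 3 at Tet2, 2 at Dot1l and 1 each at Dnmt3a, Crebbp, Jarid2, Smarca2 and Chd7. No interval of Ep300, Hdac7 or Arid1b had a match. With this motif, the share at the chromatin enzyme genes was therefore close to that of gained intervals in general. Intervals with an AP-1 match had a median difference of 1.26, and the 11 gained ones without it had 1.68. These groups also differed in control level, which the difference followed. A match was in 2 of the 7 gained intervals under 20 control reads, 5 of the 9 from 20 to 60 and 3 of the 5 at 60 or more. The same medians over the table are not given here. The largest gains, Jarid2 intervals 1 and 2, held no match to TGACTCA, and the next, Dot1l interval 3, held one. The looser form TGANTCA matched in 13 of the 21 (61.9%), against 52.8% of all gained intervals. It added Hdac7, Jarid2 interval 1 and Chd7 interval 2.

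The PU box GAGGAA, the core of the site for PU.1 and other ETS factors, matched in 6 of the 21 gained intervals (28.6%), against 28.1% of all gained, 52.2% of all lost and 34.5% of the table. At Tet2 interval 3, Crebbp and Dot1l interval 2 it stood beside an AP-1 match, and at Hdac7 and Jarid2 intervals 1 and 4 it did not. One of the 2 lost intervals, Ep300 interval 2, held it. The κB motif matched in 1 of the 21 (4.76%), Tet2 interval 1, against 8.67% of all gained, 2.54% of all lost and 7.03% of the table. That match lies at chr3:133437157-133437166 and reads as a κB site on both strands.

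The RUNX motif TGTGGT matched in 4 of the 23, against 22.0%, and the IRF motif GAAANNGAA in the Smarca2 interval alone, against 7.42%. A match says that the letters are present and does not show that a factor was bound.

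**Figure D4:**
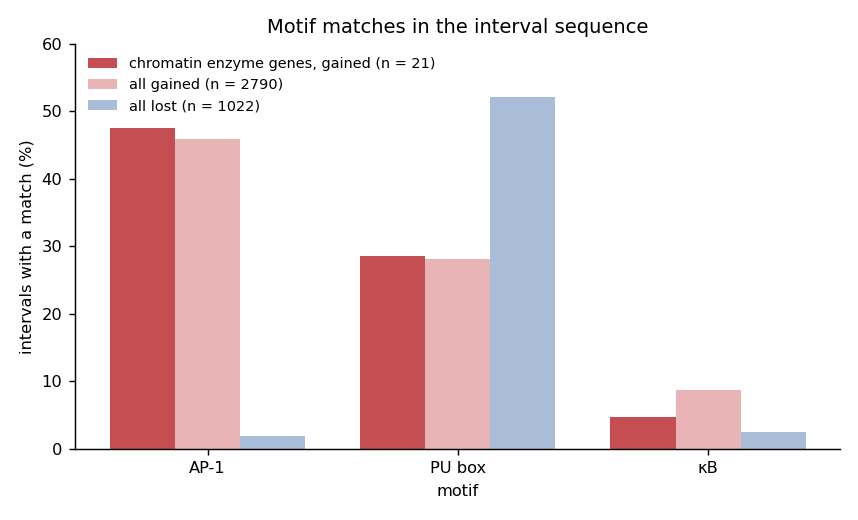
Percent of intervals with a match to 3 motifs, for the 21 gained intervals of the chromatin enzyme genes (dark red), all 2790 gained intervals (light red) and all 1022 lost intervals (blue). The dark and light red bars are close for AP-1 (47.6% and 45.9%) and the PU box (28.6% and 28.1%), and for κB the dark bar stands for 1 interval.

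The 10 genes were set within a list of 132 genes for chromatin enzymes in 7 classes, which was also drawn up with earlier results of these data known. A gained interval was assigned to 18 of the 132 (13.6%), against 8.63% of 22384 annotated genes. A lost interval was assigned to 7 (5.30%), against 3.72%. The 10 genes make up 9 of the 18 and 1 of the 7. They were chosen with their intervals known, which raises the shares of the list. These shares are therefore not read as an excess over all genes. No gene of the list had both, and 107 had neither. Genes of the list are longer, with a median span of 51.2 kb against 17.0 kb for all genes and 120.6 kb for the 10, and genes with an interval in the table had a median of 42.6 kb. The part of gene length in the counts was not tested.

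By class, the counts were small and mixed in direction. A gene called gained or lost here is one to which such an interval was assigned. Some of these intervals lie outside their gene, such as that of Ncoa3, 37675 bp upstream. Among 8 DNA methylation genes, 3 had a gained interval and 0 a lost one, the third being Dnmt3l, a cofactor of the methyltransferases (0.66). Among 12 acetyltransferase genes 1 was gained and 2 were lost, since the co-activator gene Ncoa3 (-0.75) was on the side of Ep300. Among 29 remodelling genes 5 were gained and 0 lost, with the helicase genes Chd2 (1.06) and Chd9 (1.18) beside the 3 described above. Among 37 methylation genes 2 were gained and 1 was lost, Ehmt1 (-1.75), a methyltransferase of lysine 9 of histone H3.

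The 16 deacetylation genes had 3 gained and 2 lost. Within class IIa, to which Hdac7 belongs, Hdac5 was gained (25.8 to 81.2 reads, 1.66), whereas Hdac4 was lost (34.1 to 11.5 reads, -1.56) and Hdac9 had 4 lost intervals with differences of -1.45, -0.78, -1.45 and -1.31. The class I gene Hdac1 was gained (1.71). The Hdac4 interval lies 110432 bp upstream and outside its gene, whereas those of Hdac5 and Hdac9 lie inside their genes. Intervals assigned to related genes of 1 class thus differed in direction here too, as for Crebbp and Ep300. The 24 demethylation genes had 3 gained, namely Kdm1a (1.45), Kdm6b (0.63) and Kdm7a (1.00 and 1.11), and 2 lost, Kdm2a (-1.68) and Kdm4a (-0.67). Among 6 ubiquitination genes, Usp7 was gained (0.72).

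**Figure D5:**
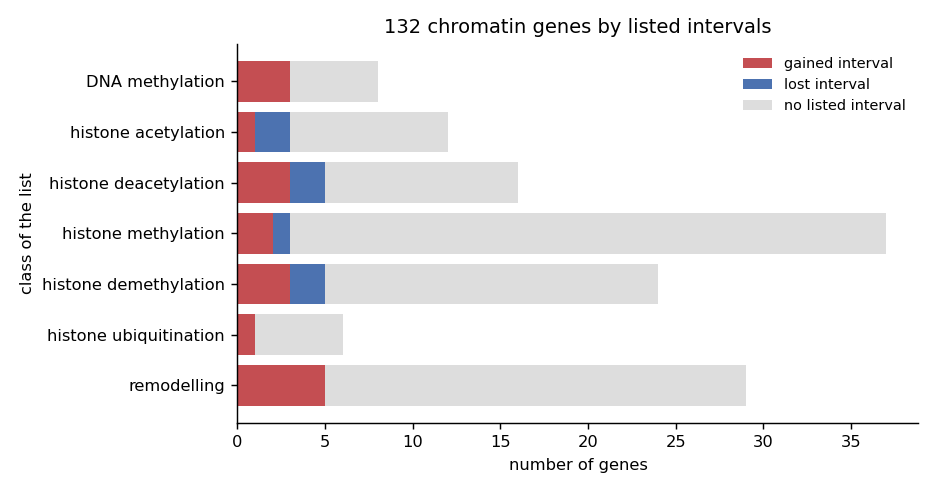
Number of genes (horizontal axis) of the 132-gene list in each class with a gained interval (red), a lost interval (blue) or none in the table (grey). DNA methylation and remodelling hold 3 and 5 genes with gained intervals and none with lost ones, and the acetylation and deacetylation classes hold both colours.

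None of the 10 genes appears in the list of genes changed by MCD in RNA-seq that accompanies the study. Of the other listed chromatin genes with an interval, Kdm6b and Kdm7a appear in it. The paper states that within the JmjC family MCD upregulated Jmjd3 (Kdm6b) alone. The direction of the Kdm7a change in RNA-seq is not given here, so it cannot be set against that statement. The share of all genes, or of all genes with an interval, that appear in the list is not given here. These counts can therefore not be called few or many. The list holds changed genes alone, so absence from it does not give a gene's expression level, and no relation between accessibility and expression was tested.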

How the data were processed

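ATAC-seq was analysed in 4 samples, 2 control and 2 MCD, grouped by their titles. By the study's methods, the authors used Bowtie2 for alignment (GRCm38), Picard for duplicate removal, MACS2 for peaks, and DiffBind, running DESeq2 and edgeR, for the comparison of MCD with control. The submitters' processing notes list MACS3 3.0.0, cutadapt 2.6, Bowtie2 2.4.4, deepTools 3.5.1 and R 4.0.2. How reads were normalized, whether they were shifted for the Tn5 cut, and if peaks came from single or merged samples are not given in the sources used here.

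The table deposited by the authors holds, per interval, their mean of normalized reads per condition and over all samples on the log2 scale. These log2 means were used as the authors' means. Its fold change, p-value and FDR columns, deposited by the authors, hold their own comparison and were not used, except that FDR was checked to be at or under 0.05 in 100% of the intervals. Unchanged intervals were not analysed here. Linear reads are 2 to the power of the log2 mean, and differences are MCD minus control.

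Genes were assigned by the shortest distance from an interval's middle to a TSS of any GENCODE M21 transcript that has an Entrez ID, with 3 kb as promoter distance. Motifs were searched in RefSeq GRCm38.p6. Every interval of the 10 genes is named, as is every other gene of the 132-gene list with an interval, and host or neighbouring genes only where they contain an interval or are nearer under another assignment. The intervals near 1700029N11Rik were included for that reason. The genes, the list and the motifs were chosen with earlier results of these data known. No test was run, since there are no values per sample. The procedures were tested on simulated data. The sequence and motifs of Chd7 interval 1 are not reported here. Software was Python 3.11.15 with pysam 0.24.0, pandas 2.3.3, numpy 2.4.6 and matplotlib 3.10.9.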

Additional observations from a re-analysis of the deposited data

How the results depend on the processing

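With the start sites of all annotated genes, 13 gained and 0 lost intervals were left to the 10 genes, in place of 21 and 2. Tet2, Ep300, Smarca2 and Arid1b then had none. The list of chromatin genes had 12 genes with a gained interval in place of 18, and 3 with a lost interval in place of 7. Requiring an absolute difference of at least 1 kept 18 intervals at 9 genes, without Crebbp, of which 17 were gained and 1 was lost. Within 1 kb of a TSS lay 2 intervals in place of 4. The median over genes was 1.48 in place of 1.33 over intervals, and 6 intervals had an AP-1 match in their central 100 bases in place of 10. The matches of Tet2 intervals 1 and 3 were among those outside the central bases. Start sites of protein-coding genes, distance from the interval's edge, a floor of 5 on the higher log2 mean and the looser motif TGANTCA left the counts they bear on within 1.5 times, from 20 to 23 gained intervals and 13 AP-1 matches.

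No paired analysis was possible because the table holds condition means and no value per replicate. Leaving out a replicate or scaling the samples in another way was not possible for the same reason. Depth and replicate error are unknown from these values.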
